A study of Mus with 15 samples.

Results

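The genes described here are 8 that make, sense or end adenosine and cyclic AMP (cAMP) signals. They are the ecto-enzyme genes Entpd1 and Nt5e, the adenosine receptor gene Adora2a, and the cyclic nucleotide phosphodiesterase genes Pde3b, Pde4b, Pde4d, Pde7a and Pde2a. They were chosen by symbol, as 8 of the 55573 genes in the count table. Of these 8, 7 passed the filter on low counts and were tested, and Pde2a did not pass.

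RNA was sequenced in bulk from thymocytes of female, 6-week-old mice of the strain C57Bl/6 x Foxp3-GFP, in which green fluorescent protein reports the Treg transcription factor FOXP3. Every gate kept live cells positive for the T cell receptor beta chain and CD4 and negative for CD8 and CD73, after mechanical dissociation of the thymus and magnetic depletion of CD8-bearing cells. CD73 is the protein that Nt5e encodes, so cells carrying it were sorted out of all 15 libraries. There were 5 gates with 3 libraries each, numbered 40, 42 and 43. Bst2+ cells carried BST2 together with CD25, FOXP3 or both, and the other 4 gates excluded BST2. Mature regulatory T cells (Tregs) carried CD25 and FOXP3, CD25+ progenitors had CD25 without FOXP3, FOXP3lo progenitors had low FOXP3 without CD25, and neither was present on conventional CD4 single-positive (CD4SP) cells. The replicates are described as biological replicates of 1 sort experiment, without saying whether each is a mouse or a pool, so p-values measure the spread between these samples.

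Adenosine outside cells is made in steps. CD39, the product of Entpd1, strips phosphates from extracellular ATP and ADP, and CD73 turns the resulting AMP into adenosine, which the Gs-coupled receptor encoded by Adora2a senses to raise cAMP inside the cell. Phosphodiesterases break cyclic nucleotides down and so end the signal, and in T cells cAMP acts through protein kinase A to restrain T cell receptor signalling. Both ecto-enzymes are known from mouse Tregs, where they contribute to suppression.

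The libraries held 10816064 to 23758157 counts. The Bst2+ libraries stood apart, with 14685 to 17198 genes with a count against 18355 to 23382 in the other 12 libraries, and with a biological coefficient of variation of 0.453 against 0.124 to 0.164 within the other gates. Mitochondrial rRNA took 14.07% to 19.6% of counts in Bst2+ libraries and 9.51% to 11.7% in the others, and its part in the Bst2+ results was not tested. The Bst2+ libraries also held more transcripts of marker genes of macrophages and monocytes. Levels are given in CPM, a gene's counts relative to the TMM-scaled total of its library. The 10 macrophage and monocyte markers summed to 692 to 1340 CPM in Bst2+ libraries and to 1.61 to 7.94 CPM in the others, and the 8 T cell markers to 3521 to 3815 CPM in Bst2+ libraries and 3208 to 4502 CPM in the others. The 4 gates without BST2 were therefore fitted apart from the Bst2+ libraries (12 libraries, 15648 genes), and p-values for the Bst2+ gate come from a fit of all 15 libraries (16069 genes). A gene was called when its p from the quasi-likelihood test of edgeR, adjusted over all genes of the fit by the Benjamini-Hochberg method, was under 0.05. Means of levels are given ± SD (n = 3) and log2 fold changes ± standard error (SE), on build GRCm38. DESeq2 and limma-voom with a variance for each gate were run as other tests.

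**Figure D1:**
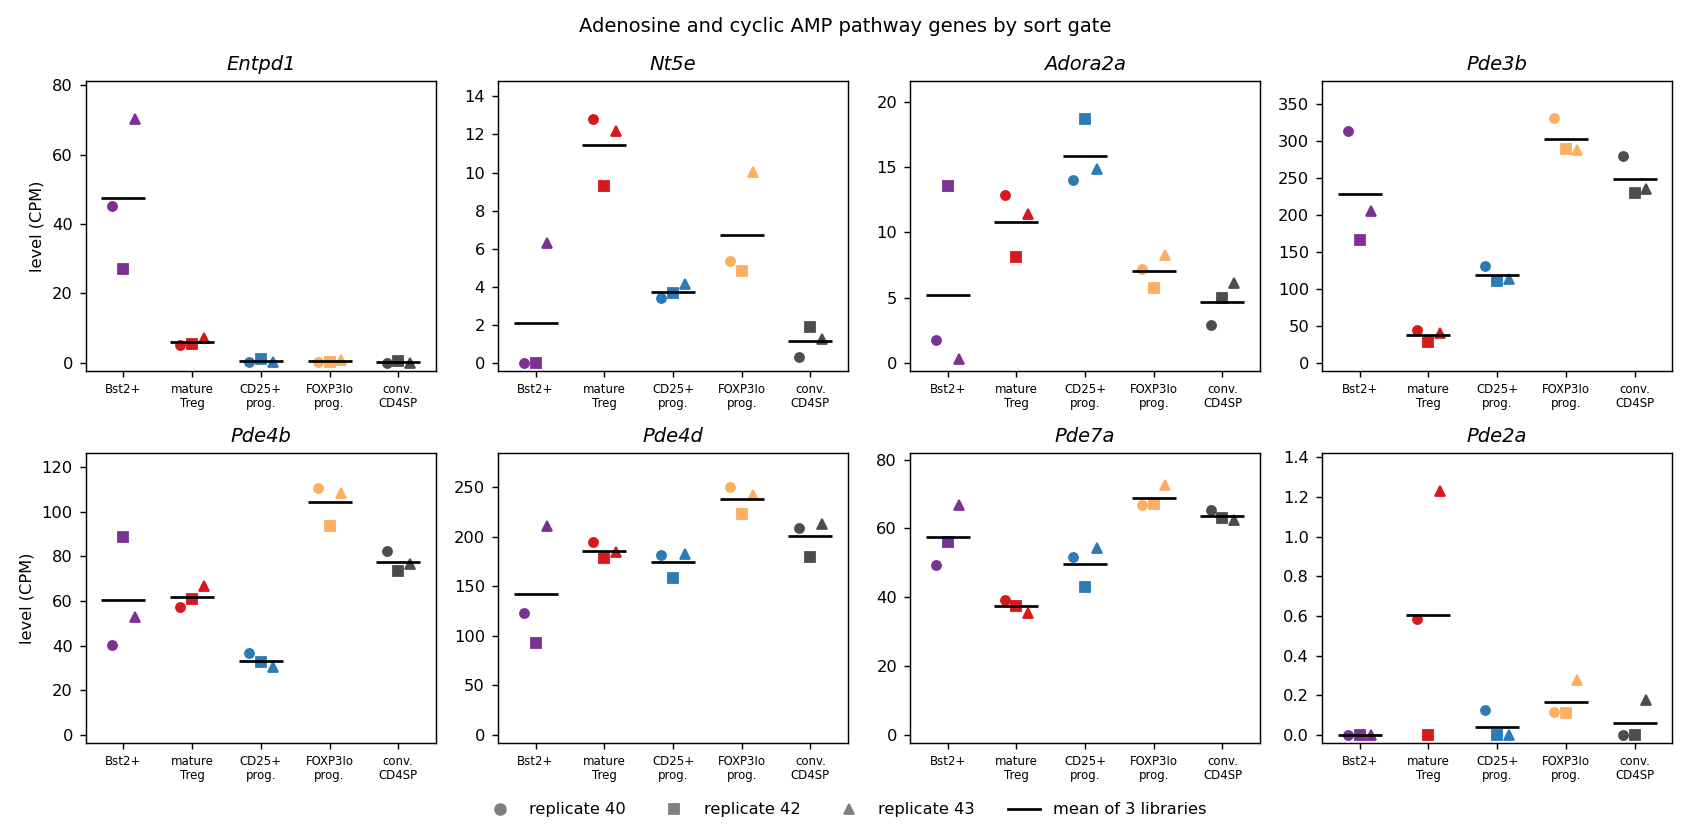
Level of each of the 8 genes in CPM (linear axes) in the 15 libraries, by sort gate, with the replicate number as the symbol and a bar at the mean of 3 libraries. Entpd1 stands at 26.9 to 70.4 CPM in Bst2+ libraries and at no more than 7.25 CPM in any other, and Pde3b at 27.6 to 45.0 CPM in mature Tregs, below every library of the other 4 gates.

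Entpd1 (ENSMUSG00000048120, chromosome 19, 40612366 to 40741602, plus strand) was the gene of the set that depended most on the gate. Its levels were 45.2, 26.9 and 70.4 CPM in Bst2+ libraries 40, 42 and 43, and 5.00, 5.40 and 7.25 CPM in mature Tregs. CD25+ progenitors had 0.308, 1.16 and 0.318 CPM and FOXP3lo progenitors 0.346, 0.168 and 0.877 CPM. Conventional cells had 0, 0.447 and 0 CPM, where all of the 6 counts came from replicate 42. The Bst2+ libraries lay above all others and the mature Treg libraries above those of the remaining 3 gates, whose ranges overlapped. In bulk RNA, fewer cells of a type and less RNA per cell cannot be told apart, here and for all results that follow.

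Mature Tregs had 9.66-fold more Entpd1 RNA than CD25+ progenitors (log2 fold change 3.27 ± 0.75, adjusted p = 0.000581) and 12.49-fold more than FOXP3lo progenitors (3.64 ± 0.77, adjusted p = 0.000438). These folds turned on single libraries of few counts: the log2 fold change was 4.20 without CD25+ progenitor replicate 42 and 4.48 without FOXP3lo progenitor replicate 43. Against conventional cells the log2 fold change was 5.52 ± 0.90 (adjusted p = 4.10e-06), a value that rests on the 6 counts of 1 conventional library and was 4.78 without conventional replicate 40 and 6.66 with limma-voom. Without conventional replicate 42 no count was left in that gate, so its size cannot be given. Neither progenitor gate was called different from conventional cells, at 2.25 ± 0.92 for CD25+ progenitors (adjusted p = 0.0629) and 1.88 ± 0.94 for FOXP3lo progenitors (adjusted p = 0.153). Both were called without conventional replicate 42, again with no size, and that of CD25+ progenitors also with DESeq2, at 2.28, and without CD25+ progenitor replicate 40 or 43, at 2.55 and 2.56. Its adjusted p-values ran from 0.000842 to 0.402 over 12 alternatives. The progenitor gates were not called apart either (0.37 ± 0.77, adjusted p = 0.756), and the sign of that difference turned without replicate 42 of either gate, at −0.56 without that of CD25+ progenitors and −0.02 without that of FOXP3lo progenitors.

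Nt5e (ENSMUSG00000032420, chromosome 9, 88327197 to 88372092, plus strand) was found at low levels in cells that had been sorted as lacking its protein. Libraries 40, 42 and 43 had 0, 0 and 6.30 CPM in the Bst2+ gate, where all of the 100 counts came from replicate 43. They had 12.8, 9.27 and 12.2 CPM in mature Tregs and 3.39, 3.69 and 4.13 CPM in CD25+ progenitors. FOXP3lo progenitors had 5.36, 4.81 and 10.03 CPM, and conventional cells 0.324, 1.86 and 1.28 CPM. All libraries of mature Tregs and of both progenitor gates lay above all conventional libraries, while the ranges of mature Tregs and FOXP3lo progenitors overlapped.

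Among the gates without BST2, Nt5e RNA was higher in the 3 with CD25 or FOXP3 than in conventional cells. All differences of Nt5e are between cells sorted as negative for its own protein, and the part of that selection in them was not tested. The log2 fold change was 3.39 ± 0.40 in mature Tregs (adjusted p = 5.70e-09), 1.78 ± 0.40 in CD25+ progenitors (adjusted p = 0.000537) and 2.63 ± 0.40 in FOXP3lo progenitors (adjusted p = 1.56e-06). Mature Tregs also had more than CD25+ progenitors (1.61 ± 0.36, adjusted p = 0.000381). Their difference from FOXP3lo progenitors was not called (0.76 ± 0.34, adjusted p = 0.128), and was called without FOXP3lo progenitor replicate 43, at 1.17, and with limma-voom, at 0.81. CD25+ progenitors had fewer Nt5e transcripts than FOXP3lo progenitors in all libraries, and this difference was just outside the threshold (−0.85 ± 0.35, adjusted p = 0.0537). It was called without FOXP3lo progenitor replicate 40 or 42, at −0.98 and −1.04, and when low counts were left unfiltered, at −0.85.

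Adora2a (ENSMUSG00000020178, chromosome 10, 75316877 to 75334784, plus strand), the gene of the Gs-coupled adenosine receptor, had another order, with CD25+ progenitors at the top. In the order 40, 42 and 43, libraries had 1.73, 13.6 and 0.315 CPM in the Bst2+ gate and 12.9, 8.10 and 11.4 CPM in mature Tregs. They had 13.99, 18.7 and 14.9 CPM in CD25+ progenitors, 7.20, 5.76 and 8.28 CPM in FOXP3lo progenitors and 2.91, 4.99 and 6.09 CPM in conventional cells. The CD25+ progenitor libraries lay above all other 12, the mature Treg libraries above all conventional ones, and the FOXP3lo range overlapped those of mature Tregs and of conventional cells. The Bst2+ libraries spread over nearly the whole range.

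In CD25+ progenitors Adora2a was 3.44-fold above conventional cells (log2 fold change 1.78 ± 0.26, adjusted p = 5.59e-07) and 2.24-fold above FOXP3lo progenitors (1.17 ± 0.25, adjusted p = 0.000221). In mature Tregs it was 2.34-fold higher than in conventional cells (1.23 ± 0.26, adjusted p = 0.000283). The differences of mature Tregs from CD25+ progenitors (−0.56 ± 0.25, adjusted p = 0.0827) and from FOXP3lo progenitors (0.61 ± 0.26, adjusted p = 0.0979) were not called. FOXP3lo progenitors were not called different from conventional cells (0.62 ± 0.26, adjusted p = 0.0843). Of these 3, the first was called with limma-voom, at −0.59, the second without mature Treg replicate 42, at 0.77, and the third with limma-voom, at 0.74, and without conventional replicate 43, at 0.87.

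Among the 4 tested phosphodiesterases of the set, Pde3b (ENSMUSG00000030671, chromosome 7, 114415281 to 114539251, plus strand) varied most between the gates without BST2. Its product hydrolyses cAMP and is inhibited by cyclic GMP (cGMP). Its levels in libraries 40, 42 and 43 were 313, 166 and 205 CPM in the Bst2+ gate, 45.0, 27.6 and 39.9 CPM in mature Tregs, and 130, 110 and 114 CPM in CD25+ progenitors. FOXP3lo progenitors had 331, 288 and 287 CPM, and conventional cells 279, 230 and 235 CPM. Mature Tregs lay below all other libraries and CD25+ progenitors came next. Every FOXP3lo progenitor library was above every conventional one, and the Bst2+ range overlapped both.

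Pde3b was 6.64-fold lower in mature Tregs than in conventional cells (log2 fold change −2.73 ± 0.14, adjusted p = 4.24e-10) and 8.08-fold lower than in FOXP3lo progenitors (−3.01 ± 0.14, adjusted p = 4.38e-10). The second of these was the 136th lowest fold change of 15648 genes. In CD25+ progenitors it was 2.103-fold lower than in conventional cells (−1.07 ± 0.13, adjusted p = 9.98e-06) and 2.56-fold lower than in FOXP3lo progenitors (−1.36 ± 0.13, adjusted p = 5.04e-07). Mature Tregs were in turn 3.16-fold lower than CD25+ progenitors (−1.66 ± 0.14, adjusted p = 1.72e-07). These 5 differences were called under each of the 12 alternatives tried for each of them. FOXP3lo progenitors were not called different from conventional cells (0.28 ± 0.13, adjusted p = 0.133). This difference was called with limma-voom, at 0.27, when low counts were left unfiltered, at 0.28, and with the replicate number as a block (0.29, adjusted p = 0.00393, with adjusted p-values of 0.00393 to 0.527 over its 12 alternatives).

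Pde4b (ENSMUSG00000028525, chromosome 4, 102087543 to 102607259, plus strand) encodes a cAMP-specific phosphodiesterase that is known to act near the T cell receptor. For libraries 40, 42 and 43 the values were 40.2, 88.6 and 52.9 CPM in the Bst2+ gate, 57.4, 60.8 and 66.9 CPM in mature Tregs, and 36.5, 32.7 and 30.2 CPM in CD25+ progenitors. FOXP3lo progenitors had 111, 93.7 and 108 CPM, and conventional cells 82.6, 73.4 and 76.7 CPM. The 4 gates without BST2 did not overlap each other, with FOXP3lo progenitors highest, then conventional cells, mature Tregs and CD25+ progenitors.

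In CD25+ progenitors Pde4b was 2.35-fold below conventional cells (log2 fold change −1.23 ± 0.10, adjusted p = 2.83e-13) and 3.15-fold below FOXP3lo progenitors (−1.65 ± 0.10, adjusted p = 2.55e-17). Mature Tregs had 1.87-fold more than CD25+ progenitors (0.90 ± 0.10, adjusted p = 1.42e-09) but less than FOXP3lo progenitors (−0.76 ± 0.10, adjusted p = 9.28e-08) and conventional cells (−0.33 ± 0.10, adjusted p = 0.00720). FOXP3lo progenitors exceeded conventional cells by 0.42 ± 0.10 (adjusted p = 0.000622). With all 15 libraries in 1 fit, the differences of mature Tregs and of FOXP3lo progenitors from conventional cells were no longer called, at −0.33 and 0.43.

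Pde4d (ENSMUSG00000021699, chromosome 13, 108449948 to 109953461, plus strand), another cAMP-specific enzyme gene, changed less. Libraries 40, 42 and 43 had 123, 92.7 and 211 CPM in the Bst2+ gate, 195, 179 and 184 CPM in mature Tregs, and 182, 158 and 183 CPM in CD25+ progenitors. FOXP3lo progenitors had 251, 223 and 242 CPM, and conventional cells 209, 180 and 214 CPM. FOXP3lo progenitors lay above the other gates without BST2, and the remaining 3 of these overlapped.

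The calls for Pde4d were small in size. Its log2 fold change was −0.45 ± 0.08 in CD25+ progenitors against FOXP3lo progenitors (adjusted p = 3.69e-06), −0.36 ± 0.08 in mature Tregs against FOXP3lo progenitors (adjusted p = 0.000414) and 0.25 ± 0.07 in FOXP3lo progenitors against conventional cells (adjusted p = 0.0109). The last of these was lost without FOXP3lo progenitor replicate 40, at 0.22, or conventional replicate 42, at 0.18. CD25+ progenitors differed from conventional cells by −0.20 ± 0.08 (adjusted p = 0.0355), a call lost without conventional replicate 40 or 43 or CD25+ progenitor replicate 42, at −0.18, −0.16 and −0.14, and when low counts were left unfiltered, at −0.21. Mature Tregs were not called different from CD25+ progenitors (0.09 ± 0.08, adjusted p = 0.373) or conventional cells (−0.11 ± 0.08, adjusted p = 0.304).

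Pde7a (ENSMUSG00000069094, chromosome 3, 19223108 to 19311322, minus strand) encodes a cAMP-specific enzyme of T cells. Libraries 40, 42 and 43 had 49.5, 56.1 and 66.7 CPM in the Bst2+ gate, 39.1, 37.4 and 35.5 CPM in mature Tregs, and 51.8, 43.0 and 54.2 CPM in CD25+ progenitors. FOXP3lo progenitors had 66.9, 67.1 and 72.6 CPM, and conventional cells 65.5, 62.9 and 62.4 CPM. The order was that of Pde3b, with mature Tregs below all other libraries and FOXP3lo progenitors and conventional cells at the top.

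Pde7a was 1.70-fold lower in mature Tregs than in conventional cells (log2 fold change −0.77 ± 0.10, adjusted p = 1.06e-07), 1.84-fold lower than in FOXP3lo progenitors (−0.88 ± 0.10, adjusted p = 1.33e-08) and 1.33-fold lower than in CD25+ progenitors (−0.41 ± 0.10, adjusted p = 0.00181). CD25+ progenitors had less than FOXP3lo progenitors (−0.47 ± 0.10, adjusted p = 0.000199) and than conventional cells (−0.36 ± 0.10, adjusted p = 0.00565), the second call being lost without CD25+ progenitor replicate 42, at −0.26. FOXP3lo progenitors and conventional cells were not called apart (0.11 ± 0.10, adjusted p = 0.480). Of its exon bases, 48 (0.6%) overlap a gene on the other strand that has no symbol here.

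Pde2a (ENSMUSG00000110195, chromosome 7, 101421691 to 101512827, plus strand), whose product hydrolyses cAMP and is stimulated by cGMP, was at the edge of detection. Its counts in libraries 40, 42 and 43 were 0, 0 and 0 in the Bst2+ gate, where a count of 0 allows 0.189 to 0.288 CPM, and 7, 0 and 19 counts in mature Tregs. They had 2, 0 and 0 counts in CD25+ progenitors, 2, 2 and 5 in FOXP3lo progenitors and 0, 0 and 3 in conventional cells. No fold change is given at these counts, and such floors cover counting error only. Of the 6149 exon bases of Pde2a, 3955 (64.3%) are shared with an overlapping gene on the same strand, ENSMUSG00000030653. That gene had 17, 1 and 0 counts in conventional libraries 40, 42 and 43, and 0, 0 and 10 in Bst2+ libraries. It had 0, 0 and 5 counts in mature Tregs, 0, 0 and 4 in FOXP3lo progenitors and 0 in all CD25+ progenitor libraries. The counts and floors of Pde2a are therefore of read pairs assigned to it, not of all pairs in its exons. The header of the count table shows no option for counting read pairs that fall in several genes, and the part of this overlap in the low counts was not tested.

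**Figure D2:**
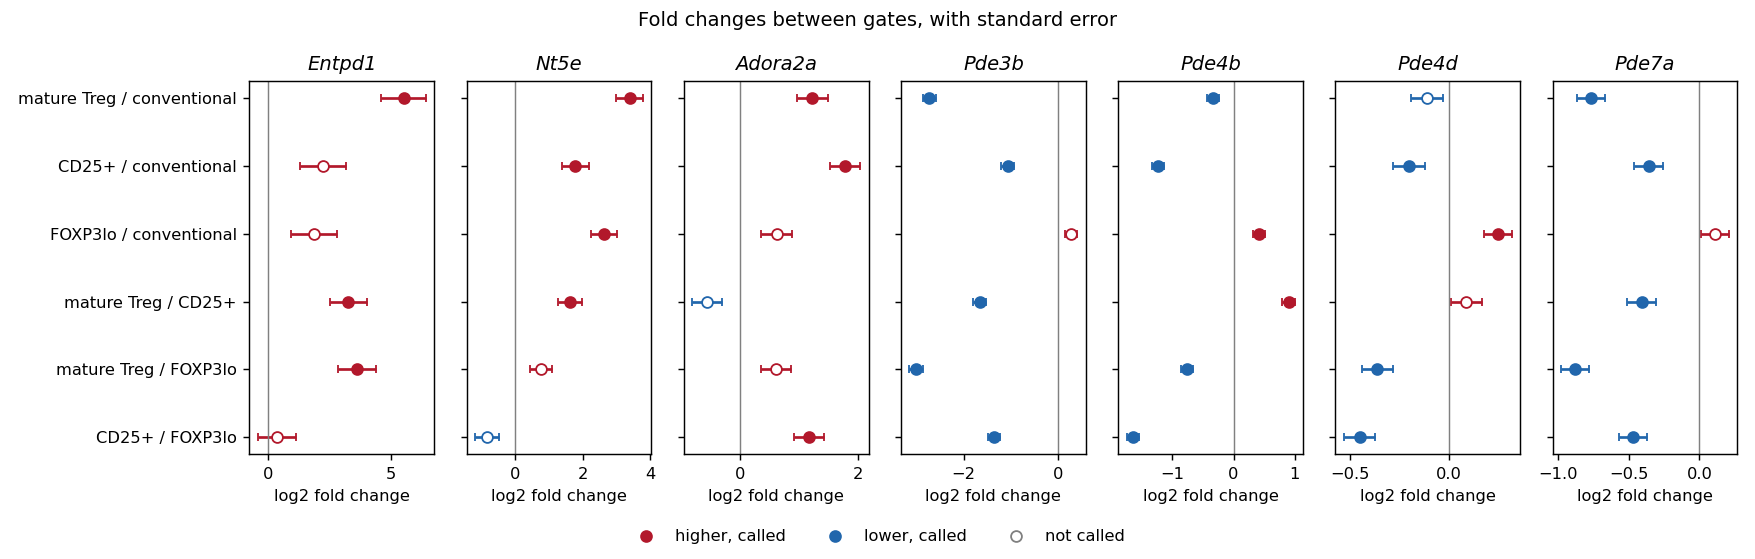
Log2 fold changes (dot) with standard errors (bar) of the 7 tested genes in the 6 pairs of gates without BST2, the gate named first being compared with the one named second, with open dots where the adjusted p was 0.05 or more and axes that differ between genes. Entpd1, Nt5e and Adora2a lie right of 0 in all 3 comparisons with conventional cells, and Pde3b runs from −3.01 in mature Tregs against FOXP3lo progenitors to 0.28 in FOXP3lo progenitors against conventional cells.

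Taken by comparison, mature Tregs against conventional cells had 3 of the 7 genes called higher (Entpd1, Nt5e and Adora2a) and 3 called lower (Pde3b, Pde4b and Pde7a), where 30.4% of all tested genes were called, 15.1% higher and 15.3% lower. The 2 ecto-enzyme genes and the receptor gene were the higher ones, with Nt5e compared among CD73-negative cells only. The lower ones were 3 of the 4 tested phosphodiesterase genes. With all 15 libraries in 1 fit, which takes in the wide spread of the Bst2+ gate, 3 of the 6 calls were left, those of Entpd1, Pde3b and Pde7a. The gates also differed in the marker lists. Treg markers summed to 3919 to 4216 CPM in mature Tregs against 186 to 205 CPM in conventional cells, and markers of recirculating mature Tregs to 366 to 386 CPM against 70.2 to 78.9 CPM, with Il10 and Klrg1 at 0 in mature Tregs. The part of recirculating cells in the results was not tested. Of the 10 macrophage markers, 7 had no count in mature Tregs, and their sum was 2.07 to 4.36 CPM in mature Tregs against 3.20 to 3.58 CPM in conventional cells. NKT and innate-like markers summed to 10.24 to 17.07 CPM in mature Tregs against 1.42 to 2.53 CPM in conventional cells, and the part of such cells was not tested.

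CD25+ progenitors against conventional cells had 2 genes called higher (Nt5e and Adora2a) and 4 called lower (Pde3b, Pde4b, Pde4d and Pde7a), with 29.0% of all tested genes called, 14.7% higher and 14.3% lower. In this gate all 4 tested phosphodiesterase genes of the set were lower than in conventional cells, Pde3b and Pde4b by over 2-fold. Calls of Pde3b and Pde4b were left with all 15 libraries in 1 fit, and those of the other 4 genes were not. Markers of CD8 and double-positive thymocytes summed to 155 to 202 CPM in CD25+ progenitors against 52.4 to 89.4 CPM in conventional cells, with a count for all 6 in each gate. Gamma-delta T cell markers summed to 38.3 to 44.6 CPM in CD25+ progenitors against 14.97 to 22.95 CPM in conventional cells. NKT and innate-like markers summed to 11 to 12.6 CPM against 1.42 to 2.53 CPM, and to 10.24 to 17.07 CPM in mature Tregs. The part of such cells in these results was not tested.

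FOXP3lo progenitors against conventional cells had 3 genes called higher (Nt5e, Pde4b and Pde4d) and 0 called lower, with 25.1% of all tested genes called, 12.8% higher and 12.3% lower. The 3 differences ran from 0.25 for Pde4d to 2.63 for Nt5e on the log2 scale, and no other phosphodiesterase gene of the set was called. None of the 3 calls was left with all 15 libraries in 1 fit (adjusted p = 0.228 for Nt5e, 0.261 for Pde4b and 0.629 for Pde4d). Over their 12 alternatives, adjusted p-values ran from 2.13e-11 to 0.228 for Nt5e, from 7.28e-05 to 0.261 for Pde4b and from 0.00358 to 0.629 for Pde4d. Treg markers summed to 1296 to 1490 CPM in FOXP3lo progenitors against 186 to 205 CPM in conventional cells, and CD8 and double-positive markers to 19.9 to 24.0 CPM against 52.4 to 89.4 CPM. The 8 stroma and endothelium markers summed to 267 to 302 CPM in FOXP3lo progenitors against 173 to 199 CPM in conventional cells. Of that sum Pecam1 made 260 to 296 CPM in FOXP3lo progenitors against 169 to 194 CPM in conventional cells, while Krt5 and Cdh5 were at 0 in FOXP3lo progenitors. The part of such cells was not tested.

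The 3 comparisons among Treg-lineage gates gave 5 calls each. Mature Tregs against CD25+ progenitors had Entpd1, Nt5e and Pde4b higher and Pde3b and Pde7a lower, with 32.7% of all tested genes called, 15.9% higher and 16.8% lower. Mature Tregs against FOXP3lo progenitors had Entpd1 higher and all 4 tested phosphodiesterase genes of the set lower, with 18.7% of all tested genes called, 9.37% higher and 9.29% lower. CD25+ progenitors against FOXP3lo progenitors had Adora2a higher and the same 4 phosphodiesterase genes lower, with 39.5% of all tested genes called, 19.9% higher and 19.7% lower. CD8 and double-positive markers summed to 35.8 to 42.1 CPM in mature Tregs, 155 to 202 CPM in CD25+ progenitors and 19.9 to 24.0 CPM in FOXP3lo progenitors. Stroma and endothelium markers, again mostly Pecam1 and with Krt5 at 0, summed to 192 to 234 CPM in mature Tregs, 120.2 to 133 CPM in CD25+ progenitors and 267 to 302 CPM in FOXP3lo progenitors. The part of such cells in these differences was not tested. These comparisons share libraries with each other and with those against conventional cells. With all 15 libraries in 1 fit, mature Tregs against CD25+ progenitors lost Nt5e and Pde7a, mature Tregs against FOXP3lo progenitors lost Pde4d, and CD25+ progenitors against FOXP3lo progenitors lost Adora2a and Pde4d.

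Because the 4 gates without BST2 cross CD25 with FOXP3, an interaction term tested whether the difference between gates with and without CD25 was the same with FOXP3 (mature Tregs minus FOXP3lo progenitors) as without it (CD25+ progenitors minus conventional cells). It was called for 4 genes, 1 with a positive and 3 with a negative sign, where 10.9% of all tested genes were called, 5.46% with a positive and 5.39% with a negative sign. For Pde3b the difference with CD25 was −3.01 in the FOXP3 gates and −1.07 in the gates without FOXP3, an interaction of −1.94 ± 0.19 (adjusted p = 3.67e-06). For Pde7a it was −0.88 and −0.36, an interaction of −0.52 ± 0.14 (adjusted p = 0.0117). Pde4b went the other way, with −0.76 in the FOXP3 gates and −1.23 in the gates without FOXP3 (0.47 ± 0.14, adjusted p = 0.0179).

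Adora2a had a difference with CD25 of 0.61 in the FOXP3 gates and 1.78 in the gates without FOXP3 (−1.18 ± 0.36, adjusted p = 0.0273). Its interaction was lost without conventional replicate 40, CD25+ progenitor replicate 42, mature Treg replicate 42 or FOXP3lo progenitor replicate 43, at −0.91, −1.04, −1.01 and −1.05. That of Pde4b was lost without conventional replicate 40, FOXP3lo progenitor replicate 42, CD25+ progenitor replicate 43 or mature Treg replicate 43, at 0.42, 0.40, 0.41 and 0.38. With all 15 libraries in 1 fit Pde3b was the 1 gene of the set still called. No interaction was called for Entpd1 (adjusted p = 0.6175), Nt5e (−1.02 ± 0.53, adjusted p = 0.264) or Pde4d (−0.15 ± 0.11). That of Entpd1 turned negative without conventional replicate 42, which leaves no count in that gate and so no size to give. The mature Treg and FOXP3lo gates also differ in how much FOXP3 they carry, which cannot be told apart from CD25 here.

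Bst2+ cells were compared with the mean of the 3 other gates that carry CD25 or FOXP3. Of the 7 genes, 2 were called higher and 1 lower, where 39.1% of 16069 genes were called, 19.3% higher and 19.8% lower. The fit gives all gates 1 spread, so its p-values are too small for the wider spread of the Bst2+ libraries. Entpd1 was 39.8-fold higher (log2 fold change 5.31 ± 0.49, adjusted p = 3.51e-07), with 47.5 ± 21.8 CPM in Bst2+ cells against 5.88 ± 1.20 CPM in mature Tregs, 0.596 ± 0.490 CPM in CD25+ progenitors and 0.464 ± 0.369 CPM in FOXP3lo progenitors. Pde3b was higher by 1.05 ± 0.15 (adjusted p = 3.77e-05), at 228 ± 76.2 CPM in Bst2+ cells, a level between the highest and the lowest of the 3 gates. Pde4d was lower by −0.48 ± 0.16 (adjusted p = 0.0295), a call lost without Bst2+ replicate 40, at −0.39, without Bst2+ replicate 42, at −0.25, and with a variance of its own for each gate in limma-voom, at −0.52. With limma-voom the other 2 calls were kept, Entpd1 at 5.40 and Pde3b at 0.99.

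Of the genes not called in Bst2+ cells, Nt5e and Adora2a were each called without 1 library and when low counts were left unfiltered, at −1.65 and −1.07. Nt5e stood at −1.61 ± 0.97 (adjusted p = 0.203) with counts in replicate 43 alone, and without it all Bst2+ libraries are at 0 and the difference was called, with no size to give. Adora2a stood at −1.04 ± 0.65 (adjusted p = 0.221), and without replicate 42 it was called, at −3.47. Pde4b (0.02 ± 0.16) and Pde7a (0.19 ± 0.11) were not called. Pde4b was called at −0.37 without Bst2+ replicate 42, and Pde7a at 0.28 without Bst2+ replicate 40.

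**Figure D3:**
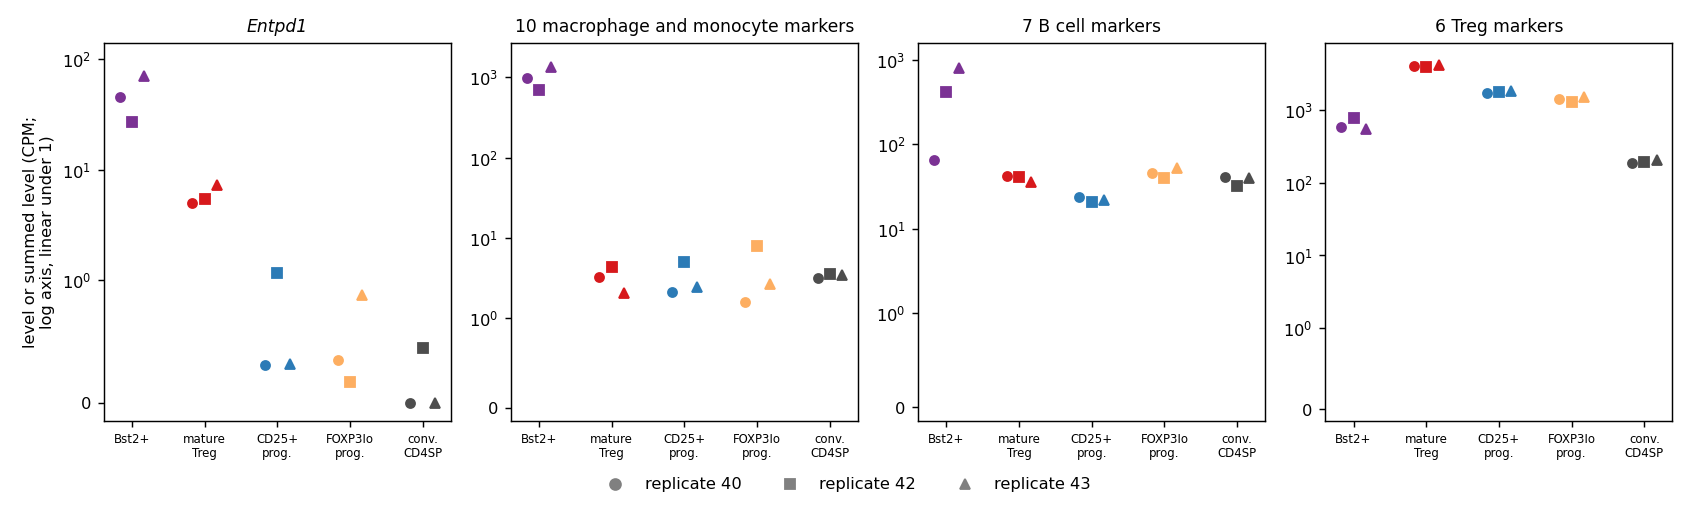
Level of Entpd1 and summed levels of 10 macrophage and monocyte, 7 B cell and 6 Treg marker genes (CPM, log axes that are linear under 1) in each library by gate, with the replicate number as the symbol. Bst2+ libraries hold 26.9 to 70.4 CPM of Entpd1 together with 692 to 1340 CPM of macrophage markers, while mature Tregs hold 5.00 to 7.25 CPM of Entpd1 with 2.07 to 4.36 CPM of macrophage markers.

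Entpd1 is also made by macrophages and B cells, and markers of both were higher in Bst2+ libraries than in all others. The 10 macrophage and monocyte markers summed to 980, 692 and 1340 CPM in Bst2+ libraries 40, 42 and 43, with a count for all 10. The 7 B cell markers summed to 64.1, 413 and 792 CPM in Bst2+ libraries against 20.5 to 52.3 CPM in all others. Gamma-delta T cell markers summed to 106.5 to 292.6 CPM in Bst2+ libraries against 10.23 to 44.61 CPM in all others. Dendritic cell markers summed to 88.7 to 124 CPM in Bst2+ libraries against 1.81 to 7.57 CPM elsewhere, and CD8 and double-positive markers to 758 to 1293 CPM against 19.9 to 202 CPM. Treg markers summed to 577, 772 and 554 CPM in Bst2+ libraries, below the 1296 CPM of the lowest library of the other Treg-lineage gates. The part of such cells in the Entpd1 level of Bst2+ libraries was not tested. In mature Tregs, where Entpd1 was 5.88 ± 1.20 CPM, Lyz2, C1qb, C1qc, Adgre1, Mrc1, Mertk and Fcgr1 were at 0, and the B cell markers summed to 35.7 to 42.1 CPM, with Pax5 among those at 0.

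Levels of different genes can be compared only per length. Among the 8 genes, Pde3b was highest per length in FOXP3lo progenitors, with 33.1 ± 2.73 CPM per kilobase (kb) of exon, and in conventional cells, with 27.2 ± 2.94. In mature Tregs Pde4d was highest, with 15.5 ± 0.668 CPM per kb, followed by Pde4b with 5.84 ± 0.456, Pde7a with 4.82 ± 0.232 and Pde3b with 4.11 ± 0.979. Adora2a stood at 3.53 ± 0.803, Nt5e at 1.33 ± 0.220 and Entpd1 at 1.05 ± 0.216 CPM per kb in mature Tregs. In Bst2+ cells Entpd1 reached 8.51 ± 3.91 CPM per kb, next to 25.0 ± 8.36 for Pde3b.

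**Figure D4:**
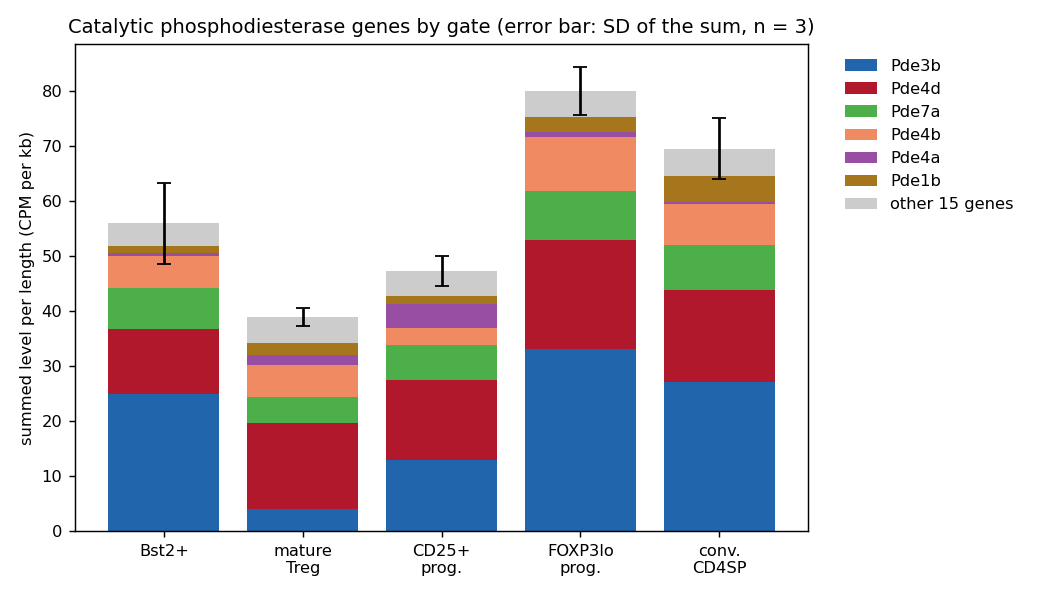
Summed level per length (CPM per kb of exon, linear axis from 0) of 21 catalytic phosphodiesterase genes by gate, stacked by gene in the order of the key from the bottom, with the SD of the sum over 3 libraries. The Pde3b layer is 4.11 CPM per kb in mature Tregs against 27.2 in conventional cells, and the Pde4d layer 15.5 against 16.7.

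Over all 21 genes for catalytic phosphodiesterase subunits, the summed level per length was 56.0 ± 7.41 CPM per kb in Bst2+ cells, 39.0 ± 1.64 in mature Tregs, 47.3 ± 2.71 in CD25+ progenitors, 80.0 ± 4.37 in FOXP3lo progenitors, against 69.6 ± 5.56 in conventional cells. Mature Tregs lay lowest in every library, at 37.1 to 40.0 CPM per kb, against 64.3 to 75.4 in conventional cells. The make-up differed as well as the sum. Pde3b made up 10.5% ± 2.13 of the sum in mature Tregs, 27.4% ± 1.64 in CD25+ progenitors, 41.4% ± 1.84 in FOXP3lo progenitors, against 39.1% ± 1.61 in conventional cells. Pde4d made up 39.8% ± 1.14 in mature Tregs, 30.7% ± 0.780 in CD25+ progenitors, 24.9% ± 0.353 in FOXP3lo progenitors, against 24.0% ± 1.47 in conventional cells. Pde4a, another cAMP-specific family member outside the 8, made up 9.20% ± 1.66 in CD25+ progenitors and 0.541% ± 0.211 in conventional cells. These sums and shares are descriptions without a test.

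Other genes of the pathway were taken from 7 lists of 112 genes ordered by role, of which 108 were matched in the count table and 81 tested. Mature Tregs against conventional cells had 20 of the 81 higher and 18 lower, where 15.1% of all tested genes were called higher and 15.3% lower, also for the roles that follow. The median log2 fold change was 0.01, against −0.01 over all tested genes. Among purine receptors 2 of 5 were higher and 0 lower. They were P2ry10, a lipid receptor grouped with them by sequence, at 165 ± 8.42 CPM in mature Tregs against 31.9 ± 4.40 CPM in conventional cells (2.37 ± 0.11, adjusted p = 5.36e-21), and the ATP-gated channel gene P2rx7, at 65.3 ± 4.71 against 13.7 ± 0.607 CPM (2.25 ± 0.13, adjusted p = 2.09e-17). Of 14 genes of nucleotide and adenosine handling, 3 were higher and 4 lower. Cd38, which encodes an ecto-enzyme that consumes NAD, was higher (2.90 ± 0.72, adjusted p = 0.00149) and the nucleotidase gene Entpd5 lower (−0.90 ± 0.12, adjusted p = 8.88e-08).

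Genes for receptors, G proteins and cyclases went both ways in mature Tregs. Of 10 other genes for Gs-coupled receptors and G proteins, 4 were higher and 4 lower than in conventional cells, with a median of −0.44. Of the 4 higher ones, Gnai2 (0.24 ± 0.07) and Gnai3 (0.23 ± 0.07), named after their values were seen, encode inhibitory G protein subunits that restrain cAMP. Vipr1, a receptor for vasoactive intestinal peptide, was at 6.30 ± 1.35 CPM in mature Tregs against 84.4 ± 10.7 CPM in conventional cells (−3.74 ± 0.15, adjusted p = 5.06e-23). Ptger2, a prostaglandin E receptor, was at 7.58 ± 1.007 against 1.53 ± 0.473 CPM (2.30 ± 0.32, adjusted p = 2.34e-07), and Gnas, the gene of the stimulatory G protein alpha subunit, was slightly higher (0.45 ± 0.07). Of 10 genes for cyclases and cyclic nucleotide export, 1 was higher and 2 lower, among them the adenylyl cyclase gene Adcy7, at 56.8 ± 8.88 against 166 ± 17.4 CPM (−1.54 ± 0.10, adjusted p = 1.66e-16).

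Downstream, of 10 other tested phosphodiesterase genes, 2 were higher and 2 lower in mature Tregs than in conventional cells. The cAMP-specific Pde4a was at 14.2 ± 3.93 CPM in mature Tregs against 2.82 ± 0.887 CPM in conventional cells (2.37 ± 0.25, adjusted p = 2.05e-10), Pde7b at 5.47 ± 1.86 against 0.542 ± 0.311 CPM (3.26 ± 0.49), and the calcium-activated Pde1b at 11.5 ± 4.04 against 25.6 ± 2.01 CPM (−1.15 ± 0.23). Of 19 genes for cAMP effectors and anchoring proteins, 4 were higher and 5 lower. The anchor gene Akap13 was higher (0.98 ± 0.06), and Rapgef4, which encodes a cAMP-activated exchange factor for Rap, was at 17.1 ± 2.26 against 65.6 ± 7.70 CPM (−1.94 ± 0.14). Of 13 genes for CREB factors, their coactivators and related kinases, 4 were higher and 1 lower. Crem, a cAMP-responsive transcription factor, was at 0.94 ± 0.17 and the kinase gene Sik1 at 0.73 ± 0.11.

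**Figure D5:**
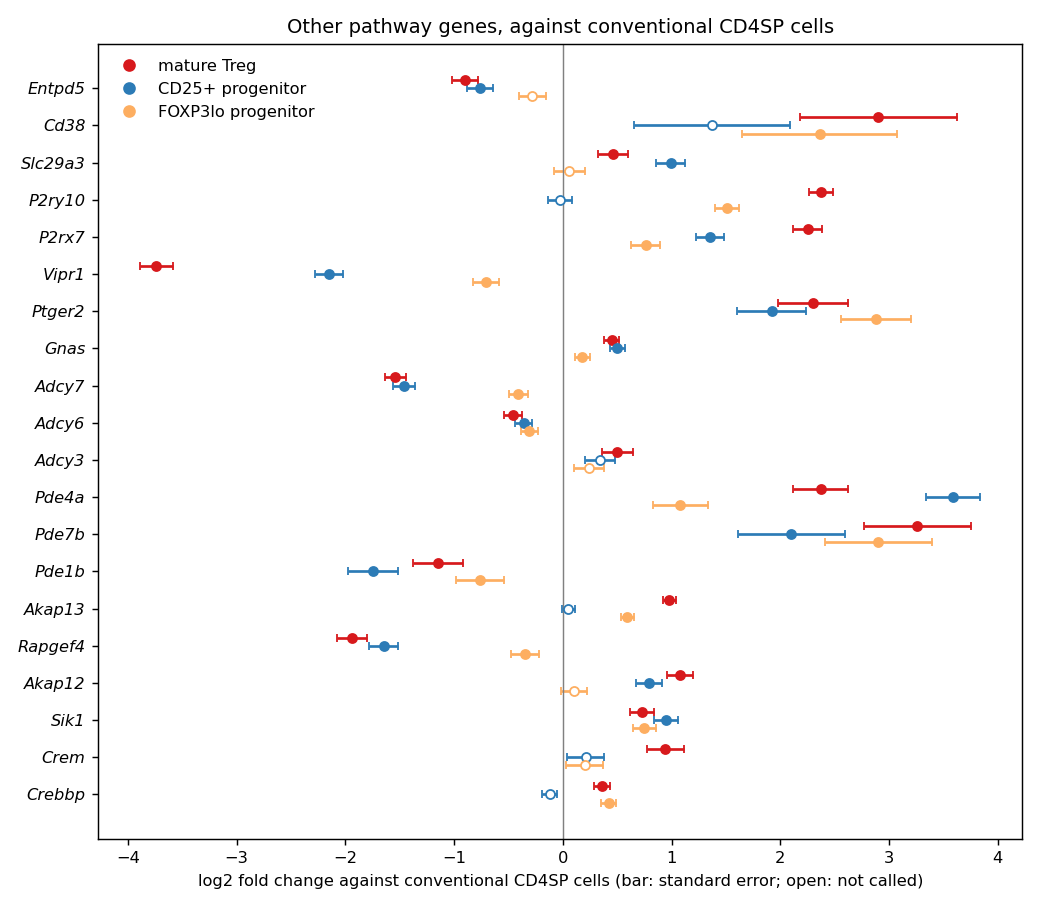
Log2 fold changes (dot) with standard errors (bar) against conventional CD4SP cells of the 20 pathway genes named for mature Tregs (up to 3 per role with the smallest adjusted p), in mature Tregs, CD25+ progenitors and FOXP3lo progenitors, with open dots where the adjusted p was 0.05 or more. Vipr1 lies lowest in mature Tregs, at −3.74, and Pde4a highest in CD25+ progenitors, at 3.59.

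CD25+ progenitors had 22 of the 81 pathway genes higher and 17 lower than conventional cells (14.7% and 14.3% of all tested genes), with a median log2 fold change of 0.10 against −0.01 over all tested genes. Pde4a was at 33.2 ± 5.19 CPM in CD25+ progenitors against 2.82 ± 0.887 CPM in conventional cells (3.59 ± 0.25, adjusted p = 2.34e-15), while Pde1b was lower (−1.75 ± 0.23, adjusted p = 7.73e-08). Slc28a2, which encodes a transporter that brings nucleosides into the cell, was lower (−1.02 ± 0.12) and the nucleoside transporter gene Slc29a3 higher (0.99 ± 0.13). Vipr1 (−2.15 ± 0.13), Adcy7 (−1.46 ± 0.10) and Rapgef4 (−1.65 ± 0.13) were lower, and P2rx7 (1.35 ± 0.13), Ptger2 (1.92 ± 0.32), Sik1 (0.95 ± 0.11) and Prkar2b, a regulatory subunit gene of protein kinase A (1.79 ± 0.32), were higher.

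FOXP3lo progenitors had 17 of the 81 higher and 17 lower than conventional cells (12.8% and 12.3% of all tested genes), with a median of 0.07 against −0.01 over all tested genes. Ptger2 was at 11.3 ± 3.17 CPM in FOXP3lo progenitors against 1.53 ± 0.473 CPM in conventional cells (2.88 ± 0.32, adjusted p = 2.05e-09), and P2ry10 at 90.3 ± 12.2 against 31.9 ± 4.40 CPM (1.51 ± 0.11). Gucy1a1, a subunit gene of the soluble guanylyl cyclase that makes cGMP, was higher (2.55 ± 0.58). Pde4c (−2.29 ± 0.33) and Akap1, which anchors protein kinase A at mitochondria (−1.92 ± 0.21), were lower, as was Ada, the gene of adenosine deaminase, at 4.34 ± 0.765 against 9.14 ± 2.87 CPM (−1.07 ± 0.28, adjusted p = 0.00277). P2ry1, an ADP receptor gene, had 0 counts in FOXP3lo progenitors and 39 in conventional cells, from 0.0580 to 1.46 CPM per library.

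CD25+ progenitors and FOXP3lo progenitors differed in 47 of the 81 genes, 22 higher and 25 lower in CD25+ progenitors (19.9% and 19.7% of all tested genes), with a median of −0.05 against −0.02 over all tested genes. Akap1 was at 31.7 ± 3.59 CPM in CD25+ progenitors against 4.73 ± 1.71 CPM in FOXP3lo progenitors (2.74 ± 0.21, adjusted p = 4.86e-14), Pde4a at 33.2 ± 5.19 against 5.81 ± 1.30 CPM (2.51 ± 0.23) and Slc29a1, which encodes a nucleoside transporter of the plasma membrane, at 27.9 ± 3.40 against 10.1 ± 1.35 CPM (1.47 ± 0.20). Lower in CD25+ progenitors were P2ry10 (−1.54 ± 0.11) and Vipr1 (−1.44 ± 0.13). Mature Tregs differed from CD25+ progenitors in 33 genes, 18 higher and 15 lower (15.9% and 16.8% of all tested genes), and from FOXP3lo progenitors in 27, 14 higher and 13 lower (9.37% and 9.29%). In the second of these, 2 of the 10 other phosphodiesterase genes were higher, Pde4a (1.29 ± 0.23, adjusted p = 3.30e-05) and Pde4c (1.31 ± 0.33, adjusted p = 0.00348), and 0 were lower.

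In Bst2+ cells 24 of 85 tested pathway genes were higher and 22 lower than the mean of the 3 other Treg-lineage gates (19.3% and 19.8% of all tested genes), with a median of 0.00 against −0.03 over all tested genes. With limma-voom 19 were called in all. P2ry12, an ADP receptor gene, was at 16.02 ± 7.67 CPM in Bst2+ cells and at no more than 0.404 CPM in any other library (7.50 ± 0.80, adjusted p = 1.83e-06). Cd38 was at 18.4 ± 13.8 CPM in Bst2+ cells against 2.84 ± 1.74 CPM in mature Tregs, 0.985 ± 0.295 CPM in CD25+ progenitors and 1.95 ± 0.629 CPM in FOXP3lo progenitors (3.38 ± 0.51). Sik1 was lower, at 25.1 ± 1.90 CPM in Bst2+ cells against 60.4 ± 2.28 CPM in mature Tregs (−1.34 ± 0.13 against the mean of the 3 gates). Slc29a2 and Gnal had 0 counts in Bst2+ cells. The macrophage, B cell and other markers given above also differ between the Bst2+ gate and the others. The part of such cells in the higher and lower levels of these genes was not tested.

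The genes whose levels ran most like those of the set were found from Pearson's r of log2(CPM + 1) over the 12 libraries without BST2, among about 9083 named genes with a mean of at least 5 CPM. The 12 points are 4 gates of 3 libraries, so r describes mainly the order of the gates. Entpd1 was most like Lpcat1 (r = 0.976), Socs2 (0.959) and Itgae (0.957), and Nt5e most like Dcaf17 (0.956), Hopx (0.953) and Ldlrad4 (0.953). Adora2a was most like Zc3h12c (0.938), Bcat1 (0.935) and Ahr (0.934), each highest in CD25+ progenitors on average. Pde3b was most like Gramd1a (0.971), Lypd6b (0.970) and Sema4f (0.968), with Pde7a next in rank (0.964).

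For the other phosphodiesterases, Pde4b was most like Trim12a (r = 0.988), Rab37 (0.986) and Frmd8 (0.986), and Pde4d most like Prex1 (0.954), Actn1 (0.933) and Vps37b (0.923). Pde7a was most like 4933406I18Rik (0.975), Pde3b (0.964) and Pim2 (0.951). Pde2a, with no count in 5 of the 12 libraries, reached 0.863 at most, with Cnot4, which is no finding at its counts. Within the set, Pde4b and Pde4d had r = 0.83, Entpd1 and Nt5e 0.78, Entpd1 and Pde3b −0.90, and Adora2a and Pde4b −0.75.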

How the data were processed

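RNA of sorted thymocytes was made into stranded libraries with the SMARTer Stranded Total RNA-Seq Pico kit, per the labels' protocols. The deposited values are counts of read pairs per gene, with 0 entries that name no gene and 0 unused columns. Per the file headers the authors counted with featureCounts 1.6.2 on Ensembl 97 (GRCm38), keeping pairs of which both reads were aligned, at a minimum mapping quality of 10 and strand setting 2. The submitters' processing notes name Trimmomatic 0.33, HISAT2 2.1.0 and featureCounts 1.4.6, another version than the header. Such pairs carry no molecular identifiers in these counts, so floors (3 counts) cover counting error only.

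The table has gene IDs and coordinates. Symbols were given by position from RefSeq genes of the same build, where gene spans shared at least 0.5 of their union with a margin of 0.2 over the next candidate (34079 genes) or shared an end (414), so that 34493 of 55573 genes, 8 of 8 members, 108 of 112 pathway genes and 74 of 74 marker genes were named.

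Genes were filtered with filterByExpr, scaled with TMM and tested with edgeR 4.0.16 (R 4.3.3), with Benjamini-Hochberg adjustment over all genes and a threshold of 0.05. The standard error is the log2 fold change divided by the root of F. CPM values use the scaled library sizes. The steps were tested on simulated data. The 8 genes, the lists and the fits were chosen with earlier results of these data known. Some genes are not reported here. The text names all 8 genes, up to 3 called genes per role and comparison with the smallest adjusted p, and for likeness the 3 highest Pearson r of log2(CPM + 1) among genes averaging at least 5 CPM.

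All gates carry the replicate numbers 40, 42 and 43, and the design text speaks of 3 biological replicates, so the number was taken as a shared source. The main fits hold gate means only and do not pair libraries by this number. Deviations from the gate means correlated at −0.015 to 0.079 between libraries with the same number (18 pairs) and at −0.073 to 0.045 between others (36 pairs). Alternatives were another normalization (RLE), no filter, the replicate number as a block, all 15 libraries in 1 fit, DESeq2 1.42.0, limma-voom (limma 3.58.1) with a variance per gate, and each library left out.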

Additional observations from a re-analysis of the deposited data

Results flagged for a closer look

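For 18 genes the difference between gates with and without CD25 was itself different with FOXP3 (mature Tregs minus FOXP3lo progenitors) and without it (CD25+ progenitors minus conventional cells), by an interaction term in edgeR's quasi-likelihood test over 15648 genes. Among the 8 genes these were Adora2a (−1.18 on the log2 scale), Pde3b (−1.94), Pde4b (0.47) and Pde7a (−0.52). Nucleotide and adenosine handling gave Alpl (−3.47) and Slc29a3 (−0.59), purine receptors P2ry10 (0.89), and Gs-coupled receptors Ptger2 (−2.50) and Vipr1 (−0.88). Ptger2 averaged 7.58 CPM in mature Tregs and 11.3 CPM in FOXP3lo progenitors, and 5.81 CPM in CD25+ progenitors and 1.53 CPM in conventional cells.

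The subunit genes of soluble guanylyl cyclase, Gucy1b1 and Gucy1a1, had −3.09 and −2.64, at no more than 5.08 CPM on average in any gate. Other phosphodiesterases gave Pde4a (−2.30) and Pde1b (1.35), and cAMP effectors and anchors Akap9 (−0.43), Akap13 (0.35) and Prkar2b (−1.58). The list of CREB factors, their coactivators and related kinases gave the kinase gene Sik1 (−0.96). Akap10 (0.44), an anchor gene outside the 3 of its role, was named after its value was seen. Pde4a averaged 14.2 CPM in mature Tregs and 5.81 CPM in FOXP3lo progenitors, and 33.2 CPM in CD25+ progenitors and 2.82 CPM in conventional cells. Over all tested genes 10.9% had a called interaction.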

How the results depend on the processing

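Of 749 values of the 7 tested genes under the alternatives, 682 kept their direction and side of the threshold, 36 lost and 22 gained a call, and 9 changed sign. With all 15 libraries in 1 fit, which shares the spread of the Bst2+ gate, 1871 genes were called in CD25+ progenitors against conventional cells (4534 in the 12-library fit), 1400 in FOXP3lo progenitors against conventional cells (3925), 1957 in mature Tregs against conventional cells (4756), 3069 in CD25+ against FOXP3lo progenitors (6187), 2096 in mature Tregs against CD25+ progenitors (5114), 759 in mature Tregs against FOXP3lo progenitors (2919) and 378 for the interaction (1698). In the same order, without mature Tregs against FOXP3lo progenitors, the genes of the set called were 2 (6), 0 (3), 3 (6), 3 (5), 3 (5) and 1 (4). The pathway genes called were 18 (39), 11 (34), 18 (38), 28 (47), 14 (33), 10 (27) and 2 (14). With limma-voom, 5 genes of the set were called in FOXP3lo progenitors against conventional cells, and in Bst2+ cells 2227 genes (6286) and 19 pathway genes (46). With no filter, 5 genes of the set (3) were called in Bst2+ cells.

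Leaving out 1 library each gave 2 to 4 genes of the set for the interaction, 4 to 7 for CD25+ progenitors and 2 to 4 for FOXP3lo progenitors against conventional cells. Signs turned for Entpd1 in CD25+ against FOXP3lo progenitors (−0.56 without CD25+ replicate 42 and −0.02 without FOXP3lo replicate 42, up to 1.21) and in the interaction (−2.77 without conventional replicate 42, up to 2.32). For Pde4b in Bst2+ cells the value was −0.02 with no filter, −0.04 with limma-voom, −0.37 without Bst2+ replicate 42 (up to 0.23 without Bst2+ replicate 40), and −0.01 without mature Treg 40, FOXP3lo 42 or CD25+ 43. The cause was not tested where libraries were left out. With the replicate number as a block, the pairing changed 1 call among the 7 genes, that of Pde3b in FOXP3lo progenitors against conventional cells (0.29). Other scaling moved the median of all genes by at most 0.052. Counts were few for Entpd1 in conventional cells (6 counts) and for Pde2a, and the part of depth in this was not tested.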
